A study of Mus musculus with 6 samples.

Results

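Sterol transport and bile acid uptake were followed in the intestinal epithelium through 10 genes, chosen by name: Npc1l1, Soat2, Abcg5, Abcg8, Abca1, Slc10a2, Fabp6, Slc51a, Slc51b and Nr1h4. All 10 were found among the 46078 genes of the deposited count table, and all 10 passed the filter on low counts, as did 14923 genes in all. The libraries came from untreated C57BL/6JRj mice, 3 of them young (2 to 3 months) and 3 aged (20 to 22 months), with no genetic change named for either group. Epithelial cells of the proximal small intestine were released by EDTA and trypsin and sorted for EpCam and against CD45, a leukocyte surface protein, and poly(A) RNA was sequenced. Neither the sex of the mice nor a batch is labelled, and 1 library was taken to be 1 mouse, since 3 mice per age are named. The question put to each gene was whether its level differed between young and aged epithelium.

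The enterocyte takes up free cholesterol and plant sterols from the gut lumen through NPC1L1, a protein of the brush border. ABCG5 and ABCG8, which work only as a pair, pump sterols back into the lumen, SOAT2 (also called ACAT2) esterifies cholesterol for export in chylomicrons, and ABCA1 moves cholesterol to apolipoprotein A-I on the side of the blood. Bile acids, which dissolve these lipids, are recovered mainly in the ileum: SLC10A2 (also called ASBT) imports them, FABP6 binds them in the cytosol, and the SLC51A-SLC51B pair (OSTα-OSTβ) releases them towards the portal blood. NR1H4 (FXR) is the nuclear receptor that senses bile acids and induces Fabp6, Slc51a, Slc51b and the hormone gene Fgf15, while the LXR receptors Nr1h2 and Nr1h3 sense oxysterols and induce Abca1, Abcg5 and Abcg8.

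The upstream sequences of 4 loci are shown because the results turn on the pairing of Abcg5 with Abcg8 and on the contrast between abundant Npc1l1 and scarce Fabp6 and Slc10a2. They are from RefSeq (GRCm38.p6), whose table held an entry for 9 of the 10 genes (Soat2 had none), and each ends just before an annotated transcription start. Abcg5 and Abcg8 are read away from each other, and the 109 bases between their starts (chr17:84683012-84683120, plus strand, the direction of Abcg8) hold the letters AGATAA of a GATA factor site 2 times on the minus strand, in capitals as TTATCT.
Abcg5-Abcg8: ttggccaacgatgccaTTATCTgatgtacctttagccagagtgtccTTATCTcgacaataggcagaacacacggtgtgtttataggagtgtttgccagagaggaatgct
The 250 bases before Fabp6 (chr11:43601563-43601812, minus strand) hold 2 matches to the inverted repeat that FXR binds (AGGTCA, any 1 base, TGACCT), each with 2 mismatches, in capitals.
Fabp6: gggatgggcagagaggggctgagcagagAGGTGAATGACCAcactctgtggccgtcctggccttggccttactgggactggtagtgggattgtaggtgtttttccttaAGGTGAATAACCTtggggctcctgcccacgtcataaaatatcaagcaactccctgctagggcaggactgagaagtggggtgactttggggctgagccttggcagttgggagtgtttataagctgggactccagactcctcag
The 186 bases before the first annotated exon of Slc10a2 (chr8:5105352-5105537, minus strand) hold a match, with 1 mismatch, to the HNF1 site (GTTAAT, any 1 base, ATTAAC), in capitals.
Slc10a2: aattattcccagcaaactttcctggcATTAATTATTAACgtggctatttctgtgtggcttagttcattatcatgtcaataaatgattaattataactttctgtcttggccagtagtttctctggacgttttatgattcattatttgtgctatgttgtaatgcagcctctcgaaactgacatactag
The 250 bases before Npc1l1 (chr11:6230246-6230495, minus strand) hold a match to the same HNF1 site with 2 mismatches, in capitals.
Npc1l1: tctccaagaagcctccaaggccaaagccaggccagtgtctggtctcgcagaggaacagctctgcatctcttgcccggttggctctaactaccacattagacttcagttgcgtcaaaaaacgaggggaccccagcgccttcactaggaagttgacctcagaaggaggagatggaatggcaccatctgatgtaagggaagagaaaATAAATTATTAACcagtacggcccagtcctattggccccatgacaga
Both strands were searched and no marked match overlaps another. Nr1h4, whose sequence is not shown, also held a match to the HNF1 site with 2 mismatches and a match to AGATAA. Among 32851 upstream windows of 250 bases in the RefSeq table, 0.959% held the FXR repeat and 1.24% the HNF1 site with up to 2 mismatches, and 9.99% held AGATAA. A match describes letters and does not show that a factor binds.

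Total counts ran from 41479573 to 58989166 per library, and 3 counts, the limit that a count of 0 allows, corresponded to between 0.0507 and 0.0720 CPM (counts normalised for library size, with TMM factors). Such limits cover counting error only. Epcam stood at 1656 ± 18.3 CPM (young) against 1510 ± 11.3 CPM (aged) (SD, n = 3 each), and Vil1, a structural protein of the brush border, at 1145 ± 10.7 and 1151 ± 75.8 CPM. Of 10 leukocyte genes, 8 were under 1 CPM in every library, and the summed level of the list ran from 10.6 to 19.1 CPM (young) against 11.7 to 19.2 CPM (aged), most of it from Cd68. The macrophage genes Adgre1 and Csf1r had at most 1 and 5 counts in any library. Of the 6 hepatocyte genes, Cyp7a1 and Slc10a1, of bile acid synthesis and hepatic bile acid import, had 0 counts in all 6 libraries. Ttr and Alb were detected, with 554 to 1227 and 64 to 217 counts per library. The summed level of the hepatocyte list ran from 20.8 to 31.1 CPM (young) against 13.8 to 25.8 CPM (aged), most of it from Ttr. In these bulk samples, fewer cells of a type and less RNA per cell cannot be told apart.

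The levels of the 10 genes, set on a scale of CPM per kb of merged exons so that genes can be compared, fell into a high and a low set. Npc1l1 was highest, at 58.2 ± 8.86 CPM per kb in young and 59.8 ± 3.46 in aged libraries (SD, n = 3 each), and its lowest library (49.2) lay above the highest of Abcg5 (44.3). Next came Abcg5 (40.7 ± 4.94 and 30.2 ± 4.97 CPM per kb), Soat2 (26.5 ± 2.05 and 31.7 ± 3.19) and Abcg8 (23.4 ± 5.07 and 22.2 ± 3.82). Slc51a, Nr1h4 and Slc51b followed, with means over all libraries of 18.4, 16.7 and 15.9 CPM per kb. From Abcg5 down to Slc51b, each gene overlapped its neighbour in this order in range over the 6 libraries. Slc51b was 7.91-fold above Fabp6 on this scale, with no overlap. Fabp6 stood at 1.87 ± 0.255 CPM per kb in young and 2.15 ± 0.650 in aged libraries and lay above Abca1 in every library. Abca1 (mean 0.247 CPM per kb) and Slc10a2 (mean 0.136) were lowest, and their ranges overlapped.

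**Figure D1:**
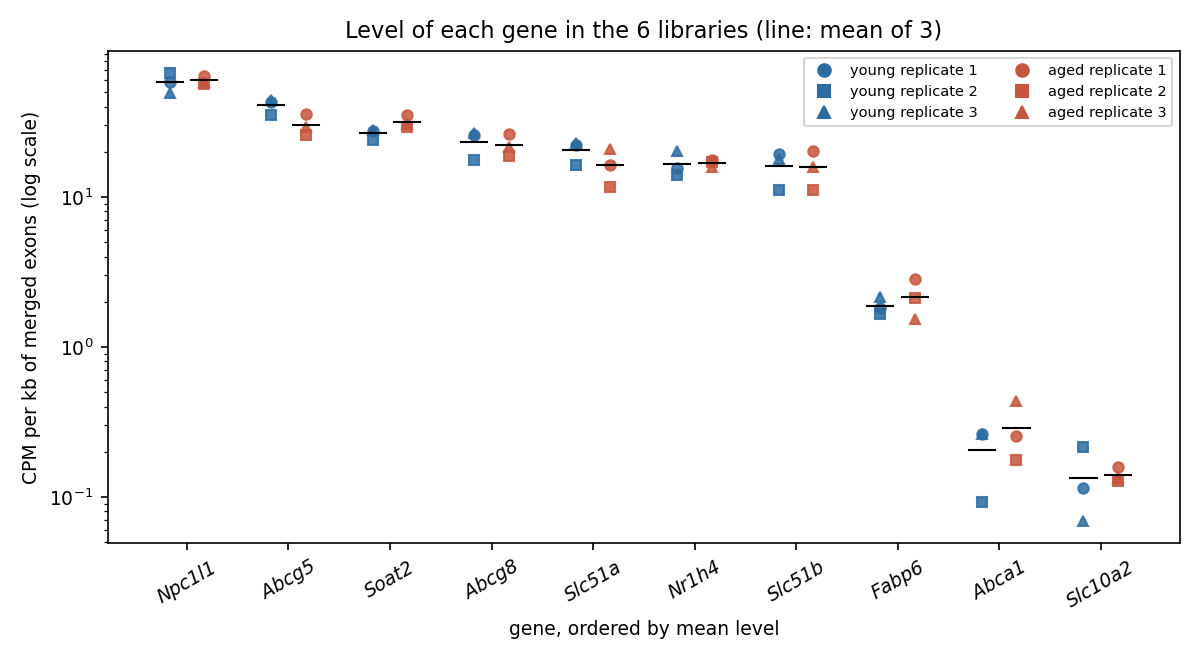
Levels of the 10 genes in CPM per kb of merged exons (log axis), one point per library (blue young, red aged, shapes for the replicate) and a line at each mean of 3. Npc1l1 lies between 49.2 and 66.9 in all libraries, while Slc10a2 lies between 0.0694 and 0.216.

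Slc10a2 and Fabp6, which mark ileal bile acid uptake, were scarce, and this set is not called ileal here. Slc51a and Slc51b were not scarce, nor were Lypd8 and Clec2h of the ileal list given below. Slc10a2 was 135-fold below Slc51a in level per kb, Fabp6 had 38 to 64 counts per library, and Fgf15, the ileal FXR target, had 2 to 5 counts per library and was too low to test. Gata4, a transcription factor of the proximal small intestine, stood at 342 ± 14.5 CPM (young) against 358 ± 10.8 CPM (aged) (SD, n = 3 each). The samples are labelled as proximal, and the genes are described below as those of the proximal epithelium.

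Of the 10 genes, 0 passed the test between ages over all genes (edgeR, quasi-likelihood, with p adjusted after Benjamini and Hochberg and held to 0.05): 0 were higher and 0 lower in aged libraries. Of all tested genes 1.41% passed, 0.623% higher and 0.784% lower. An unadjusted p below 0.05 was found for 2 of the 10, Abcg5 and Soat2, against 9.23% of all tested genes. DESeq2 and limma-voom also called 0 of the 10. The median log2 fold change of aged against young was 0.02 over the 10 genes and 0.01 over all tested genes. It was above 0 in 6 genes and below 0 in 4. The groups did not overlap in 1 of the 10, Soat2, against 13.8% of all tested genes (6.29% higher and 7.49% lower in aged libraries). A p-value that misses the threshold does not show equal levels, so each gene is given below with the interval of its difference.

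**Figure D2:**
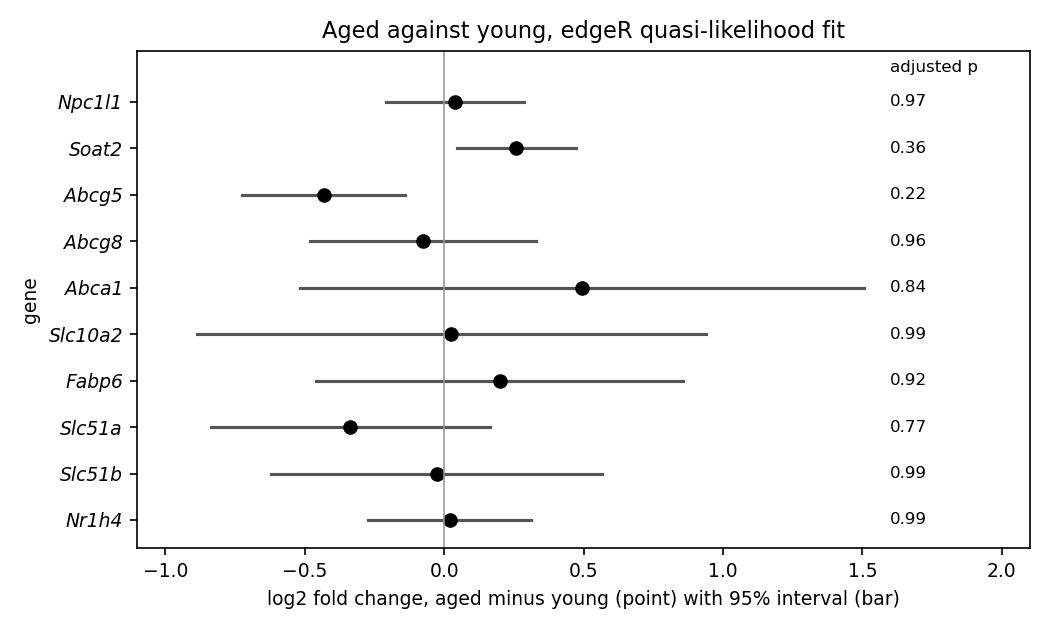
Log2 fold change of aged against young for each gene (point) with its 95% interval (bar) and the adjusted p of the edgeR quasi-likelihood test. The intervals of Abcg5 (-0.73 to -0.14) and Soat2 (0.05 to 0.47) leave out 0 before adjustment, and that of Abca1 is the widest (-0.52 to 1.51).

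Sterol entry is represented by Npc1l1 (ENSMUSG00000020447, chromosome 11, 6211013 to 6230143, GRCm38). Its level was 262, 299 and 220 CPM in the young libraries and 284, 255 and 262 CPM in the aged ones. The aged values lay inside the range of the young ones. Aged epithelium held 1.03-fold the young level, with a 95% interval of 0.866 to 1.22-fold (log2 fold change 0.04 ± 0.11 SE, adjusted p = 0.969 by edgeR's quasi-likelihood test). Across the 6 libraries the genes of at least 5 CPM whose log2 CPM followed Npc1l1 most closely were Fzd7, Plcxd2, Csnk2a2, Oser1 and Ahr, with Pearson's r of 0.98 each. With only 6 libraries and 9960 genes compared, 94 genes reached an r of 0.9, so these names describe the libraries and no more.

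Soat2 (ENSMUSG00000023045, chromosome 15, 102150526 to 102163469) encodes the enzyme that esterifies absorbed cholesterol. It stood at 61.1, 53.3 and 61.4 CPM (young) against 78.0, 64.5 and 67.6 CPM (aged). All 3 aged libraries lay above all 3 young ones. Aged libraries held 1.20-fold the young level, with an interval of 1.03 to 1.39-fold (log2 fold change 0.26 ± 0.09 SE). The unadjusted p of edgeR's quasi-likelihood test was 0.0227 and the adjusted p 0.364, which missed the threshold. Over the alternatives its adjusted p lay between 0.240 and 0.812. Soat1, the related enzyme found in most tissues, stood at 123 ± 15.8 CPM (young) against 114 ± 6.71 CPM (aged) (adjusted p = 0.845 by edgeR).

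Abcg5 (ENSMUSG00000040505, chromosome 17, 84658234 to 84683011, minus strand) stood at 116, 95.2 and 120.1 CPM (young) against 96.5, 70.0 and 79.1 CPM (aged). Of the aged libraries, 2 lay below all young ones, and aged replicate 1 lay just above young replicate 2. The level of aged epithelium was 0.741-fold that of young (95% interval 0.605 to 0.908-fold), a log2 fold change of -0.43 ± 0.13 (SE) with an unadjusted p of 0.00876 that missed the threshold (edgeR quasi-likelihood test, adjusted p = 0.220). Over the alternatives the adjusted p lay between 0.0670, with DESeq2, and 0.611, without aged replicate 2.

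Abcg8 (ENSMUSG00000024254, chromosome 17, 84676302 to 84700333, plus strand) encodes the partner of ABCG5. It stood at 97.6, 65.8 and 99.8 CPM (young) against 98.5, 70.1 and 80.9 CPM (aged). The aged values lay within the range of the young ones. Relative to young, aged libraries were at 0.949-fold (95% interval 0.716 to 1.26-fold; edgeR adjusted p = 0.960).

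Since the pair shares its start region, shown above, and its products act together, the counts of the partners were compared within each library, which needs no scaling between libraries. Abcg5 had 1.19, 1.45 and 1.20 counts per count of Abcg8 in the young libraries and 0.980, 0.998 and 0.977 in the aged ones. Every young library had more Abcg5 than Abcg8 counts and every aged library slightly fewer. Equal counts are not equal levels, since the merged exons of Abcg5 span 2712 bases and those of Abcg8 3749. Per kb, Abcg5 lay above Abcg8 in every library of both ages. In the aged libraries it stood at 35.6, 25.8 and 29.2 CPM per kb against 26.3, 18.7 and 21.6. Abcg5 made up 54.3%, 59.1% and 54.6% of the counts of both genes in young libraries and 49.5%, 50.0% and 49.4% in aged ones. The exact (Clopper-Pearson) 95% intervals, which cover counting error only, did not overlap between ages: the lowest bound in young was 53.3% and the highest in aged 51.2%. Such gaps also occurred within an age. The interval of young replicate 2 (58.1% to 60.1%) lay apart from those of young replicates 1 (53.3% to 55.3%) and 3 (53.6% to 55.7%). These intervals therefore do not measure the spread between mice.

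The mean log2 ratio was 0.35 ± 0.16 in young and -0.02 ± 0.02 in aged libraries (SD, n = 3 each), a difference of -0.37. A two-sided exact permutation test gave p = 0.10, the smallest that 3 against 3 libraries allow, and 0.40 after adjustment over the 4 ratios tested. The spread was uneven: the aged ratios lay within 0.03 of each other on the log2 scale, while young replicate 2 stood at 0.53 and the other young libraries at 0.25 and 0.27. Without young replicate 2 the difference was -0.28, and it was below 0 whichever library was left out.

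The annotation bears on this ratio. In GENCODE M21, 1 Abcg8 transcript starts inside Abcg5, and its first exon meets exons of the protein-coding Abcg5 transcripts. The other Abcg8 transcripts start outside Abcg5. The genes therefore overlap over 6710 bases on opposite strands and share 82 exonic bases. The libraries were made with a stranded kit, but the strand setting of the counting is unknown here, and the part of this overlap in the ratio was not tested.

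**Figure D3:**
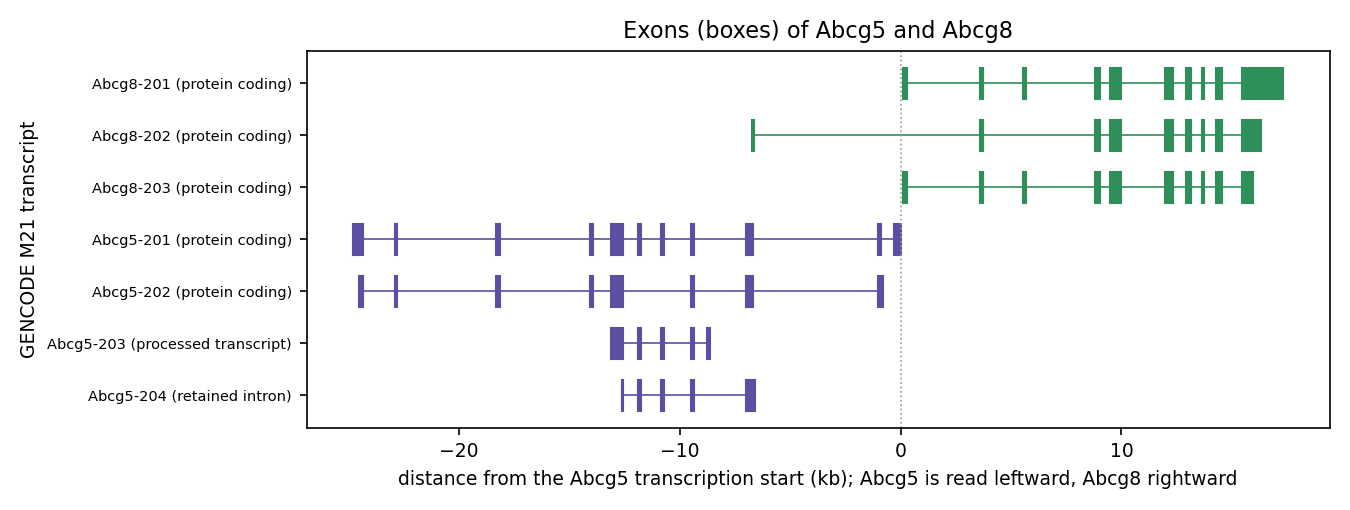
Exons of the annotated Abcg5 (purple, read leftward) and Abcg8 (green, read rightward) transcripts, by distance in kb from the Abcg5 start. Abcg8-202 is the transcript that begins inside Abcg5, and its first exon accounts for the 82 shared exonic bases.

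**Figure D4:**
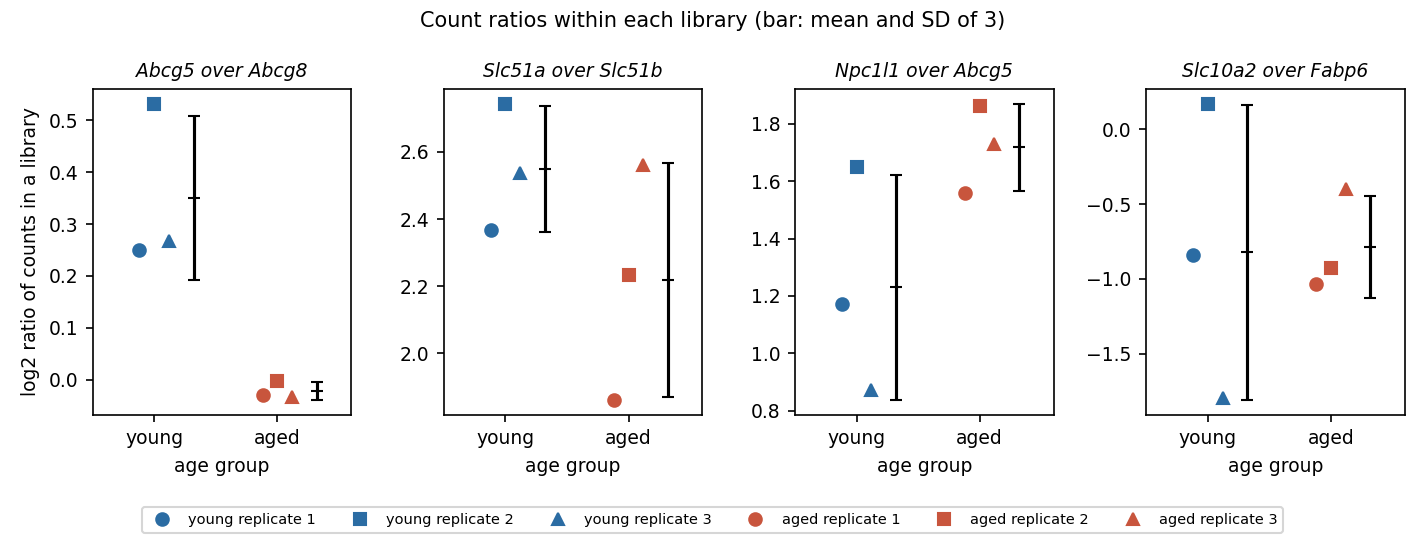
Log2 ratio of the counts of 2 genes in each library (points; shapes mark the replicate), with the mean and SD of 3 beside them, for 4 gene pairs. The ages do not overlap for Abcg5 over Abcg8 and overlap for the other 3 pairs.

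Setting uptake against efflux, Npc1l1 had 2.25, 3.14 and 1.83 counts per count of Abcg5 in young and 2.95, 3.64 and 3.32 in aged libraries. The groups overlapped, since young replicate 2 lay above aged replicate 1. The mean log2 ratio was 1.23 ± 0.39 in young and 1.72 ± 0.15 in aged libraries (SD, n = 3 each; two-sided exact permutation test, p = 0.20, adjusted p = 0.40 over 4 ratios).

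Abca1 (ENSMUSG00000015243, chromosome 4, 53030787 to 53159895), the exporter towards apolipoprotein A-I, was scarce, with 57 to 252 counts per library. It stood at 2.73, 0.964 and 2.74 CPM (young) against 2.62, 1.82 and 4.49 CPM (aged). The highest value was aged replicate 3 and the lowest young replicate 2. The fold of aged over young was 1.41, with a wide 95% interval of 0.698 to 2.84-fold (edgeR quasi-likelihood test, adjusted p = 0.844). Leaving out aged replicate 3 lowered the log2 fold change from 0.49 to 0.06, and leaving out young replicate 2 lowered it to 0.12. Abcg1, the related exporter of macrophages, was also highest in aged replicate 3 (2.19 CPM), with means of 1.39 ± 0.196 and 1.71 ± 0.421 CPM (SD, n = 3 each; edgeR adjusted p = 0.827). Of the myeloid genes, Tyrobp had 14 counts in aged replicate 3 and 2 to 3 in the other libraries, while Adgre1 had 0 and Csf1r 1 there. Cd68, which lay above Abca1 in every library, ran from 9.39 to 17.2 CPM (young) and from 9.52 CPM in aged replicate 3, the lowest aged library, to 16.95 CPM (aged). The part of these cells in the Abca1 level was not tested.

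Bile acid entry was represented by few counts, though above the limit of 3 counts in every library. Slc10a2 (ENSMUSG00000023073, chromosome 8, 5083219 to 5105351) had 21, 53 and 12 counts in young and 31, 24 and 31 counts in aged libraries, or 0.478, 0.896, 0.288 and 0.655, 0.526, 0.553 CPM. The young libraries spread over the whole range of the aged ones. On average the aged libraries held 1.02-fold the young level. The 95% interval of 0.541 to 1.92-fold (edgeR adjusted p = 0.995) spans nearly a doubling in either direction, and a difference within that range is not excluded.

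Fabp6 (ENSMUSG00000020405, chromosome 11, 43596049 to 43601540) had 38, 47 and 43 counts in young and 64, 46 and 41 counts in aged libraries, or 0.864, 0.795, 1.03 and 1.35, 1.01, 0.731 CPM. Aged replicate 1 was the highest library and aged replicate 3 the lowest. The aged level was 1.15-fold the young level (95% interval 0.728 to 1.81-fold; edgeR adjusted p = 0.917). The genes that followed Fabp6 most closely over the 6 libraries were Bad, Zfp513, Atox1, Ndufa2 and Atp5d (Pearson's r from 0.98 to 0.99, as a description), and 161 of 9960 genes reached 0.9. The ratio of Slc10a2 to Fabp6 counts overlapped between the ages, at a mean log2 ratio of -0.82 ± 0.99 in young and -0.79 ± 0.34 in aged libraries (SD, n = 3 each; two-sided exact permutation test, p = 1.0).

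The exporter pair was well measured. Slc51a (ENSMUSG00000035699, chromosome 16, 32474504 to 32487879), which encodes OSTα, stood at 71.0, 52.5 and 73.3 CPM (young) against 52.3, 37.0 and 66.4 CPM (aged). Aged replicates 1 and 2 lay below all young libraries, the first of them by a small margin, and aged replicate 3 among them. The aged level was 0.792-fold the young level (95% interval 0.559 to 1.12-fold; edgeR adjusted p = 0.774), and the log2 fold change of -0.34 was -0.15 without aged replicate 2 and -0.56 without aged replicate 3.

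Slc51b (ENSMUSG00000053862, chromosome 9, 65412714 to 65422955), which encodes OSTβ, stood at 13.8, 7.83 and 12.6 CPM (young) against 14.4, 7.85 and 11.2 CPM (aged). Replicate 2 was the lowest library of each age, and the groups overlapped throughout. The fold of aged over young was 0.981 (95% interval 0.651 to 1.48-fold; edgeR adjusted p = 0.991).

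Within a library Slc51a had 5.16, 6.70 and 5.81 counts per count of Slc51b in young and 3.64, 4.71 and 5.90 in aged libraries. Aged replicates 1 and 2 lay below all young libraries, and aged replicate 3 lay above 2 of them. The mean log2 ratio was 2.55 ± 0.19 in young and 2.22 ± 0.35 in aged libraries (SD, n = 3 each; two-sided exact permutation test, p = 0.30, adjusted p = 0.40 over 4 ratios). Per kb of exon the partners were at like levels, since Slc51a was 1.15-fold above Slc51b over all libraries. Slc51a shares 567 exonic bases with the antisense gene Pcyt1a (103 ± 12.5 and 97.9 ± 4.98 CPM) and Slc51b 91 bases with Rasl12 (0.306 ± 0.178 and 0.190 ± 0.0811 CPM), and the part of these neighbours in the counts was not tested.

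The bile acid receptor gene Nr1h4 (ENSMUSG00000047638, chromosome 10, 89454234 to 89533585) stood at 35.6, 32.4 and 46.5 CPM (young) against 40.3, 39.2 and 36.5 CPM (aged). All aged libraries lay within the range of the young ones, and the young ones spread more widely. The aged level was 1.01-fold the young level (95% interval 0.828 to 1.24-fold; edgeR adjusted p = 0.986).

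In most of the 10 genes the same library of an age was the lowest, and the share of all tested genes that do so was not counted. Young replicate 2 was the lowest young library in 8 of the 10 genes (Npc1l1 and Slc10a2 apart, where it was the highest), and aged replicate 2 the lowest aged library in 8 of 10 (Fabp6 and Nr1h4 apart). The summed level of 10 absorptive enterocyte genes was also lowest in those libraries: 6163, 4859 and 5412 CPM (young) against 5337, 4189 and 5769 CPM (aged). Of these 10 genes 0 passed the test, and the most abundant, Vil1 and Anpep, had log2 fold changes of 0.01 and 0.18. The summed level of 6 goblet cell genes, most of it from Fcgbp, was highest of its age in the same libraries. It was 15496, 23062 and 18953 CPM (young) against 14087, 15009 and 13495 CPM (aged). Not every gene of the list followed the sum. Spink4 was lowest of the young in young replicate 2, and Tff3 was highest of the aged in aged replicate 1. The part of enterocyte or goblet cell content in the member levels was not tested.

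Around the 10 genes, 86 other genes of sterol and bile acid handling in 7 lists were examined, of which 80 were tested and 0 passed (edgeR adjusted p below 0.05), with 3 at an unadjusted p below 0.05 (9.23% of all tested genes). DESeq2 called 1 of them, Ephx1. The lowest adjusted p of the edgeR test was that of Ephx1, an epoxide hydrolase, at 0.117. It stood at 46.1 ± 3.87 CPM (young) against 31.3 ± 6.38 CPM (aged) (SD, n = 3 each).

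Among 13 tested nuclear receptor genes, 7 had log2 fold changes above 0 and 6 below, with a median of 0.0041. The most abundant were Hnf4a, a master regulator of the enterocyte, at 1598 ± 112 and 1679 ± 98.8 CPM, and Vdr, the vitamin D receptor, at 922 ± 168 and 924 ± 57.6 CPM. The LXR genes Nr1h2 (156 ± 8.45 and 172 ± 21.6 CPM) and Nr1h3 (47.7 ± 0.710 and 44.4 ± 0.727 CPM) had adjusted p-values of 0.780 and 0.781 by edgeR, and Nr1h3 did not overlap between the ages. Gpbar1, the bile acid receptor of the cell surface, was too low to test, at 0.0321 ± 0.0279 and 0.0971 ± 0.0656 CPM.

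Of the targets of LXR other than the members, 9 were tested, with a median of 0.02. Fasn, of fatty acid synthesis, stood at 411 ± 72.9 and 471 ± 22.4 CPM, and Lpcat3, which remodels phospholipids, at 169 ± 17.8 and 157 ± 18.5 CPM. Of 7 tested FXR targets the median was -0.13. Abcc2, an exporter of conjugated compounds, stood at 113 ± 27.4 and 88.2 ± 29.3 CPM and Car12, a carbonic anhydrase, at 54.0 ± 0.499 and 61.6 ± 0.802 CPM. Nr0b2 (SHP), the repressor that FXR induces, stood at 2.73 ± 0.172 and 2.43 ± 0.163 CPM (edgeR adjusted p = 0.879).

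Of 11 other tested bile acid genes, 8 had log2 fold changes below 0, with a median of -0.22. The most abundant were Abcc3, a basolateral exporter, at 222 ± 45.4 and 217 ± 46.8 CPM, and Slco2b1, an organic anion importer, at 147 ± 8.72 and 144 ± 24.3 CPM. The 24 tested genes of sterol trafficking inside the cell had a median of -0.05. Their most abundant genes were Lima1, which helps NPC1L1 return to the cell surface, at 418 ± 9.65 and 416 ± 33.8 CPM, and Anxa2 at 309 ± 20.7 and 315 ± 38.2 CPM.

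The 10 tested genes of lipoprotein uptake and export had a median of 0.01, with Mttp, which loads lipid onto apolipoprotein B, at 789 ± 99.7 and 776 ± 127 CPM. Apoa4 stood at 610 ± 240 CPM (young) against 350 ± 176 CPM (aged), a difference within the spread (edgeR adjusted p = 0.765). All 11 genes of SREBP2 feedback had log2 fold changes above 0, from 0.01 to 0.26, with a median of 0.11 against 0.01 over all tested genes, and 0 passed. Of all 14923 tested genes 7735 lay above 0. The summed level of these 11 genes overlapped between the ages, at 1357, 1564 and 1316 CPM (young) against 1364, 1590 and 1536 CPM (aged). Srebf2 itself stood at 311 ± 9.39 and 314 ± 8.94 CPM.

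**Figure D5:**
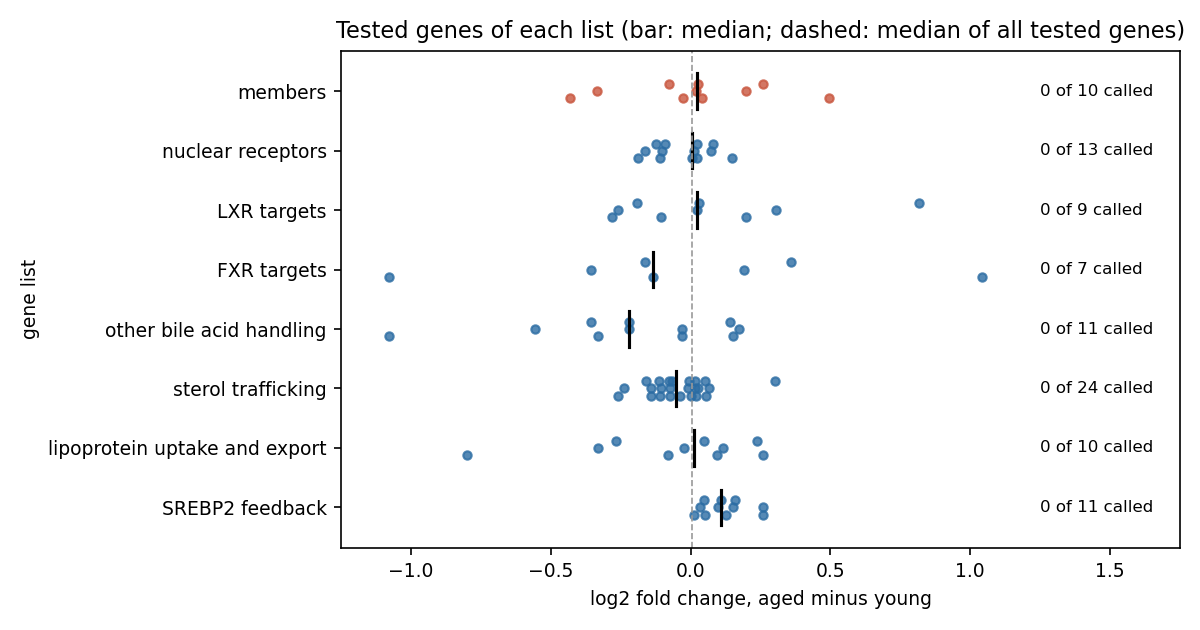
Log2 fold change of aged against young for every tested gene of the 10 members (red) and 7 related lists (blue), with the median of each list (bar) and of all tested genes (dashed line). The counts at the right give the genes that passed the edgeR test, 0 in each list. The SREBP2 feedback genes all lie above 0, as do 7735 of all 14923 tested genes.

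Of 12 genes of the proximal small intestine, 1 passed the test. Trpv6, the calcium channel of the duodenum, had 93, 74 and 85 counts in young and 0 in all 3 aged libraries, which makes it at least 29.6-fold lower in aged libraries at a limit of 3 counts per library (edgeR adjusted p = 0.00309). The summed level of this list ran from 1804 to 2769 CPM (young) against 1444 to 2444 CPM (aged). Of 9 tested ileal genes other than the members, 0 passed, and Lypd8 (2104 ± 93.1 and 1927 ± 45.6 CPM) and Clec2h (87.9 ± 10.3 and 97.2 ± 17.7 CPM) were the most abundant. Of these ileal genes, 7 had log2 fold changes below 0 and 2 above, with a median of -0.24. The lowest were Cubn at -2.36 and Nts at -1.13 (edgeR adjusted p = 0.237 and 0.441). Goblet, Paneth and enteroendocrine lists held 1, 1 and 2 genes lower in aged libraries (Tff3, Defa17, and Gip with Sst). All 6 goblet and all 6 Paneth genes had log2 fold changes below 0, with medians of -0.43 and -0.79, and the part of these shifts in the member levels was not tested. Of the tested stem cell genes 0 of 6 passed, with a median of -0.08, and 6 of 8 genes of stroma and endothelium were under 1 CPM in every library.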

How the data were processed

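The authors deposited raw counts per gene, whole numbers with unequal library totals. The submitters' processing notes name GRCm38 and, among other tools, STAR, HISAT2 2.1.0 and featureCounts 1.6.4, without their roles. Annotation release and strand setting: not given in the sources used here. Reads of overlapping antisense genes may therefore be shared or lost. Positions and exon lengths are from GENCODE M21 (GRCm38).

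Age labels set the 2 groups, and replicates were numbered in record order with no pairing. That libraries come from separate mice is inferred from the design, and p-values measure the spread between these samples. Genes were filtered with filterByExpr (minimum count 10), scaled with TMM factors and tested over all genes with edgeR 4.0.16 (quasi-likelihood test, robust, R 4.3.3), with Benjamini-Hochberg adjustment and a threshold of 0.05. The SE is the log2 fold change over the square root of F. Ratios added 0.5 to each count. The alternatives were DESeq2 1.42.0, limma-voom (limma 3.58.1), other scaling factors and filters, a non-robust fit, 0.1 added in ratios, and leaving out each library. Named genes were the 10 members, up to 4 called genes per list or else the 2 most abundant, and the 5 genes closest in pattern to Fabp6 and to Npc1l1. A few others (Nr0b2, Gpbar1, the LXR genes, Soat1, Abcg1, Ephx1, Epcam, Gata4 and single marker genes) were named after their values were seen. For 1 gene that the rule names, the result is not reported here. Members and lists were chosen with earlier results of these data known.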

Additional observations from a re-analysis of the deposited data

How the results depend on the processing

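In all 13 alternative fits 0 of the 10 genes were higher and 0 lower, and the lowest adjusted p of any of them was 0.0670 (Abcg5, DESeq2). Over all genes the counts called higher and lower, 93 and 117 with edgeR, were 206 and 276 with DESeq2 and 168 and 245 with no filter, and 67 were lower at 1 CPM in 3 libraries. Leaving out 1 library gave 35 to 135 higher and 30 to 135 lower genes. Of the pathway genes, 1 was lower with DESeq2 and with no filter (Ephx1), and 0 to 1 without 1 library. Region and cell type genes called lower numbered 5 in the edgeR fit, 11 with DESeq2, 3 at 1 CPM in 3 libraries and 1 to 7 without 1 library, and 0 to 1 were higher without 1 library.

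Without 1 library the median log2 fold change of the members ranged from -0.06 to 0.08. The sign varied over those fits for Npc1l1 (-0.069 to 0.14), Abcg8 (-0.25 to 0.027), Fabp6 (-0.045 to 0.40), Slc10a2 (-0.27 to 0.58), Slc51b (-0.25 to 0.17) and Nr1h4 (-0.094 to 0.18), and the cause was not tested. It did not vary for Abcg5 (-0.57 to -0.34), Soat2 (0.18 to 0.31), Abca1 (0.06 to 0.74) and Slc51a (-0.56 to -0.15). Slc51b was at 0.010 with limma-voom, and Slc10a2 had no value at 1 CPM in 3 libraries because it was filtered out. The ratio differences ranged from -0.42 to -0.28 for Abcg5 to Abcg8, -0.50 to -0.15 for Slc51a to Slc51b, 0.31 to 0.70 for Npc1l1 to Abcg5 and -0.45 to 0.53 for Slc10a2 to Fabp6. No paired analysis was possible because the labels carry no replicate numbers. Among the members, counts were lowest for Slc10a2 and Fabp6 (12 to 53 and 38 to 64 per library), and the part of low counts in the width of their intervals was not tested.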

Other observations

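Of the 80 tested genes of sterol and bile acid handling beside the 10, the 3 with an unadjusted p below 0.05 were Ephx1, Car12 and Stard5, which were singled out after their values were seen. Ephx1, which hydrolyses epoxides and has been linked to bile acid transport, stood at 50.5, 44.5 and 43.3 CPM (young) against 26.9, 28.4 and 38.6 CPM (aged) (log2 fold change -0.56 ± 0.14 SE; edgeR adjusted p = 0.117). It passed with DESeq2 (adjusted p = 0.00871), with no filter (0.0224) and without aged replicate 3 (0.0123). Stard5, which encodes a sterol-binding protein of the START family, stood at 62.7, 59.1 and 57.3 CPM (young) against 47.8, 45.9 and 55.9 CPM (aged) (edgeR adjusted p = 0.335). Car12 stood at 54.1, 53.5 and 54.5 CPM (young) against 61.6, 60.8 and 62.4 CPM (aged) (edgeR adjusted p = 0.320), a small difference of 1.14-fold with little spread in either group. Among the alternatives without 1 library, Smpdl3a, an LXR target, passed once, without young replicate 2 (log2 fold change -0.44, edgeR adjusted p = 0.0395).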
